A study of Mus musculus with 40 samples.

Results

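The transcripts of 10 ubiquitin ligases linked to muscle wasting were followed in the extensor digitorum longus (EDL), a fast muscle of the mouse hindlimb. The members were chosen by gene symbol: Fbxo32, Trim63, Fbxo30, Fbxo31, Fbxo21, Fbxo40, Traf6, Cblb, Nedd4 and Mul1, 10 of the 22844 genes in the table, and 10 of 10 passed the filter on low counts that left 13543 genes for testing. The 40 libraries, 1 for each muscle, came from 8 groups of 5. All mice carried floxed Tsc1 alleles (strain Tsc1tm1Djk/J). CON mice (labelled Tsc1fl/fl) were littermates without Cre recombinase, and TSCmKO mice lacked Tsc1 in skeletal muscle fibers, so that the growth-promoting kinase complex mTORC1 stayed active there while other cells of the muscle kept the gene. The promoter driving Cre was not given in the sources used here. Mice were 3 or 9 months old (3mCON, 3mTSCmKO, 9mCON and 9mTSCmKO), and were injected intraperitoneally for 3 days with vehicle or with rapamycin, which inhibits mTORC1. Rapamycin-treated groups are written +RM (3mCON+RM, 3mTSCmKO+RM, 9mCON+RM and 9mTSCmKO+RM). The labels give 4 mg per kg, and the study text a higher daily dose, so the dose is uncertain.

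Ubiquitin ligases are the enzymes that choose which proteins receive ubiquitin, and proteins tagged with suitable ubiquitin chains are degraded by the proteasome. Fbxo32 (MAFbx) and Trim63 (MuRF1) are the best-known ligases of muscle atrophy: they rise on fasting, denervation and disuse, and are transcribed under control of FoxO factors, which insulin signalling through Akt holds out of the nucleus. F-box proteins (Fbxo32, Fbxo30, Fbxo31, Fbxo21 and Fbxo40) are substrate receptors of SCF ligases, which also contain Skp1, Cul1 and Rbx1, whereas Trim63, Traf6, Cblb and Mul1 carry a RING domain and Nedd4 a HECT domain.

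Upstream sequences are shown for Trim63, the member with the largest change in 3mTSCmKO, and for Fbxo40, which moved with it, because both hold matches to letters that were searched for. RefSeq windows (GRCm38.p6, 250 bases before to 50 bases after a transcript start) were matched by symbol for 9 of the 10 members, 11 windows in all, and Fbxo32 had no entry. The letters searched, on both strands, were GTAAACA (a FoxO core), AGAACA (a glucocorticoid receptor element in part), CAGCTG (a myogenic E-box) and TGATGNAAT (an ATF4 element), besides an NF-kB element. The 250 bases before each start are printed from 5′ to 3′ along the strand of the gene, with matches in capitals.
Trim63, chr4:134314870-134315119, plus strand: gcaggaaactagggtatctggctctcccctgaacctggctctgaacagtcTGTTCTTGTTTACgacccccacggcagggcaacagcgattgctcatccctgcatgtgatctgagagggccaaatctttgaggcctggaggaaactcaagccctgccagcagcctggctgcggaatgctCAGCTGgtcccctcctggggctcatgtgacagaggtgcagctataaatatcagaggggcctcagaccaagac
Fbxo40, chr16:36990468-36990717, minus strand: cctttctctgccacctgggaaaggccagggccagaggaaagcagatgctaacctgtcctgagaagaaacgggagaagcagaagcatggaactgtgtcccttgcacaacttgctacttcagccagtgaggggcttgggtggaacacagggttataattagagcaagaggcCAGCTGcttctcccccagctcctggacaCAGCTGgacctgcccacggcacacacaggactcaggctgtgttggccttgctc
In Trim63, the first run of capitals joins AGAACA on the opposite strand (200 to 195 bases before the start) to GTAAACA on the opposite strand (194 to 188 bases before it), and a CAGCTG lies 72 to 67 bases before the start. Fbxo40 has CAGCTG 81 to 76 and 53 to 48 bases before the start. Of 32851 RefSeq windows, 3.65% hold GTAAACA, 19.0% AGAACA and 16.3% CAGCTG, so the last 2 are common. TGATGNAAT occurs in 0.965% of them and the NF-kB element in 1.63%. Further matches before the start were an AGAACA and a CAGCTG in the other window of Fbxo40 and the same pair in a window of Nedd4. The windows of Fbxo30 and Traf6, which also moved with Trim63 at 3 months, held no match to any letters searched. Nor did those of Fbxo31, Fbxo21, Cblb and Mul1. A match describes letters, not a bound site.

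Total counts ran from 8883870 to 35224669 per library, and the lowest count of any member in any library was 131, for Fbxo21. Tsc1, the deleted gene, measured 51.3 to 134 CPM (counts relative to the library total, scaled by the TMM method) in CON libraries and at most 35.8 CPM in TSCmKO libraries, which matches every label. The fiber markers Ckm, Acta1, Ttn, Myh4, Tnnt3, Mylpf, Pvalb and Des were present in all groups. In 9mTSCmKO, the libraries of replicates 1 and 3 resembled their group least (median correlation across genes 0.958 and 0.974), as did 9mCON replicates 1 and 2 (0.975 each), so results at 9 months are also given without these 4 libraries. The labels give insert sizes of 175 to 239 nt for the 3-month libraries against 223 to 308 nt for the 9-month ones, so age and library preparation cannot be told apart. In whole muscle, fewer cells of a type and less RNA per cell cannot be told apart either.

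Levels of different genes were compared as TPM (counts scaled by transcript length and library total). Nedd4, a ligase with broad roles in membrane protein turnover, was the most abundant, with a mean of 449 TPM over the 40 libraries and a range of 173 to 689. It was followed by Fbxo40, a muscle-restricted receptor for the insulin signalling adaptor IRS1, at 225 TPM (116 to 378) and Fbxo32 at 183 TPM (67.2 to 384). Fbxo31, known for cyclin D1 degradation, averaged 92.2 TPM, Trim63 66.9 TPM and Mul1, a ligase of the outer mitochondrial membrane, 27.5 TPM. The lower members were Fbxo30 (MUSA1) at 14.0 TPM, Traf6 at 10.6 TPM, Fbxo21 (SMART) at 7.93 TPM and Cblb, which targets IRS1, at 7.67 TPM. Fbxo30, Traf6, Fbxo21 and Cblb lay between the percentiles 41.8 and 55.1 of the tested genes, and Nedd4 at 98.0. Fbxo32 and Nedd4 share 1.76% and 1.70% of their 31-base words with other genes, and the other members 0.465% at most, so few reads could be split between genes. Because a read was shared equally among transcripts, the TPM of genes with very short annotated transcripts (Mul1, 473 nt; Fbxo31, 606 nt; Nedd4, 660 nt) depends on that rule.

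**Figure D1:**
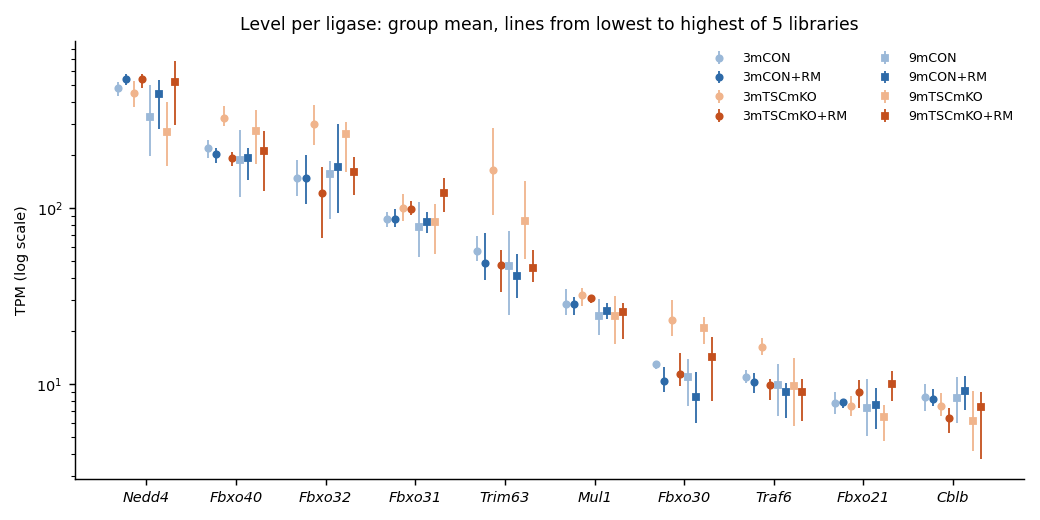
Group mean TPM (log axis) of each ligase, with lines from the lowest to the highest of 5 libraries; circles are 3 months and squares 9 months, blue CON and orange TSCmKO, dark colours rapamycin. Nedd4 stands highest at a mean of 449 TPM and Cblb lowest at 7.67 TPM, and the vehicle-treated TSCmKO groups of Fbxo32 and Trim63 stand above the other groups of the same gene.

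The comparison of 3mTSCmKO with 3mCON asked how sustained mTORC1 activity bears on these ligases in young muscle. In 3mTSCmKO, 5 of 10 members were higher and 0 were lower, against 11.4% of all tested genes higher and 8.32% lower. The 5 were Trim63, Fbxo32, Fbxo30, Traf6 and Fbxo40, and in each of them the 5 TSCmKO libraries lay above the 5 CON libraries, as in 10.9% of all tested genes (8.65% lay below). The median log2 fold change was 0.40 over the members and -0.02 over all tested genes.

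Trim63, a RING ligase of the sarcomere that acts on myosin and other thick filament proteins, measured 69.3, 84.9, 56.6, 169 and 131 CPM in 3mTSCmKO and 32.6, 33.9, 41.2, 32.5 and 34.5 CPM in 3mCON. The groups did not overlap, but the knockout libraries spread from 56.6 to 169 CPM. The log2 fold change was 1.55 (SE 0.26), a 2.92-fold rise (adjusted p = 2.24e-05, edgeR quasi-likelihood test with Benjamini-Hochberg adjustment, as for all adjusted p-values here). Fbxo32, whose known substrates include the translation factor eIF3f and MyoD, measured 1352, 1396, 856, 951 and 1118 CPM against 698, 427, 647, 487 and 485 CPM. The lowest knockout library was above the highest control library. The rise was 2.07-fold (log2 1.05, SE 0.23, adjusted p = 0.000885).

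Fbxo30, an F-box ligase that is repressed by BMP signalling in muscle, measured 57.7, 40.9, 44.9, 46.3 and 45.2 CPM in 3mTSCmKO and only 26.2 to 26.7 CPM in 3mCON. Its 3mCON libraries were the tightest of its 8 groups (SD 0.259 CPM), and the rise was 1.77-fold (log2 0.83, SE 0.14, adjusted p = 3.55e-05). Fbxo40 measured 658, 829, 602, 653 and 640.2 CPM against 409.5, 453, 475, 418 and 484 CPM, a 1.51-fold rise (log2 0.60, SE 0.14, adjusted p = 0.00123). Traf6, an adaptor ligase that builds signalling ubiquitin chains upstream of NF-kB, measured 50.8, 48.2, 50.1, 43.9 and 44.9 CPM against 29.5, 33.8, 32.6, 31.2 and 29.4 CPM, a 1.52-fold rise (log2 0.61, SE 0.14, adjusted p = 0.00125). The 3mTSCmKO mean of Traf6, 47.6 ± 3.05 CPM (SD, n = 5), was the only group of the 8 whose mean differed from the next in order by more than the larger SD.

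For Fbxo31, Fbxo21, Cblb, Nedd4 and Mul1, the log2 fold changes were between -0.16 and 0.19 and the adjusted p-values between 0.272 and 0.808.

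**Figure D2:**
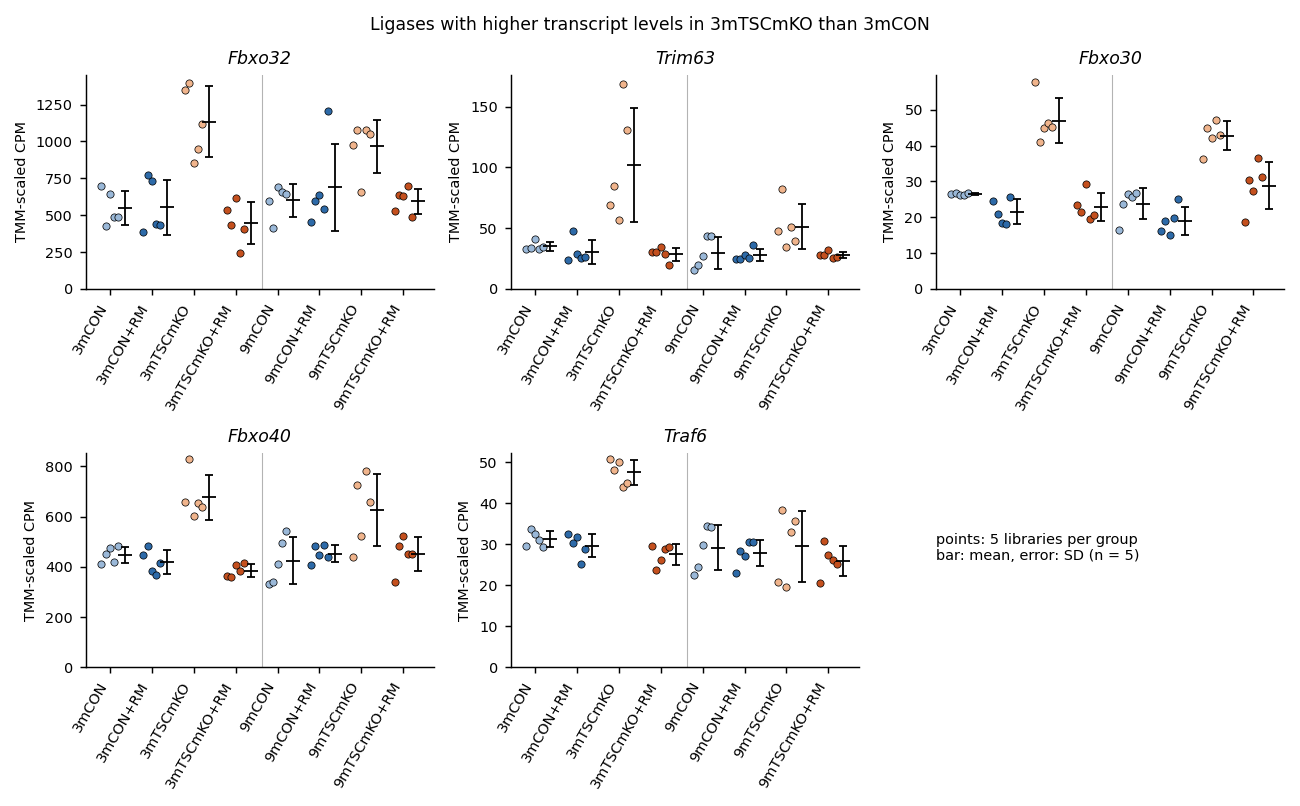
TMM-scaled CPM of Fbxo32, Trim63, Fbxo30, Fbxo40 and Traf6 in each of the 8 groups; points are libraries, and bars the mean with SD of 5 libraries. In all 5 genes the 3mTSCmKO points lie above the 3mCON points, and in 9mTSCmKO the Traf6 points fall in 2 clusters around 19.7 to 20.8 CPM and 33.1 to 38.4 CPM.

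At 9 months the same comparison called 5 of 10 members, 4 of them higher and 1 lower in 9mTSCmKO, against 19.1% of all tested genes higher and 18.9% lower. Fbxo30 rose most clearly and was the only called member whose groups did not overlap: 36.4, 45.0, 42.2, 47.2 and 42.9 CPM in 9mTSCmKO against 16.5, 23.8, 26.6, 25.5 and 26.7 CPM in 9mCON. Of all tested genes 8.77% were higher and 7.2% lower without overlap. The rise was 1.79-fold (log2 0.84, SE 0.14, adjusted p = 1.33e-05), close in size to that at 3 months.

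Fbxo32 measured 974, 1076, 655, 1079 and 1052 CPM in 9mTSCmKO and 599, 413, 691, 656 and 644 CPM in 9mCON. The groups overlap through knockout replicate 3, which lies below control replicates 3 and 4. The rise was 1.61-fold (log2 0.69, SE 0.23, adjusted p = 0.0170). Trim63 measured 47.96, 81.8, 34.7, 51.3 and 39.6 CPM against 15.6, 19.6, 27.1, 43.4 and 43.2 CPM. Both groups are wide, and control replicates 4 and 5 reach into the knockout range. The rise was 1.71-fold (log2 0.77, SE 0.26, adjusted p = 0.0164). Fbxo40 measured 439, 727, 521, 784 and 657 CPM against 333, 340.2, 409.8, 495 and 544 CPM, a 1.47-fold rise with overlapping groups (log2 0.56, SE 0.14, adjusted p = 0.00119). With only the groups compared the calls of Trim63 (adjusted p = 0.0733) and Fbxo40 (0.0523) were lost.

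Cblb was the called member that fell, with 14.9, 30.2, 17.5, 24.4 and 20.6 CPM in 9mTSCmKO against 23.3, 26.9, 34.2, 32.6 and 36.8 CPM in 9mCON. Knockout replicates 2 and 4 lie within the control range. The fall was 1.43-fold (log2 -0.52, SE 0.16, adjusted p = 0.00853). The call was lost with only the groups compared (adjusted p = 0.0890) and with limma on log2(TPM + 1) or log2(TPM + 0.1) (0.0676 and 0.0679). Traf6 did not differ by this test at 9 months (log2 0.01, SE 0.14, adjusted p = 0.947). Its knockout libraries split into replicates 1 and 3 at 20.8 and 19.7 CPM and replicates 2, 4 and 5 at 38.4, 33.1 and 35.7 CPM, while 9mCON ran from 22.6 to 34.6 CPM. Nedd4 (log2 -0.32, adjusted p = 0.103), Fbxo21 (-0.23, adjusted p = 0.129), Fbxo31 (0.05) and Mul1 (-0.01) were not called with all libraries.

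Without the 4 libraries that least resembled their groups, an alternative chosen after the data were seen, 3 members were called at 9 months: Fbxo30 (log2 0.79), Fbxo40 (0.60) and Cblb (-0.45). In that fit 4174 of the 13543 tested genes were called in either direction, a share near that of the members. Fbxo32 kept its size (log2 0.70) but not its call (adjusted p = 0.0693), and Trim63 was at 0.61 (adjusted p = 0.115). The calls of Fbxo32 and Trim63 were also lost without 9mCON replicate 2 alone (adjusted p = 0.0534 and 0.0514), and that of Trim63 without 9mTSCmKO replicate 2, its highest library (log2 0.54, adjusted p = 0.0929). Without either of these 2 libraries Nedd4 was called lower (log2 -0.41, adjusted p = 0.0361, and -0.44, adjusted p = 0.0269). Summed fiber markers ran from 86476 to 101687 CPM in 9mTSCmKO and from 134873 to 148450 CPM in 9mCON, with 1 marker of 8 higher and 4 lower, and tendon and fibroblast markers from 282 to 880.2 CPM against 809.9 to 1832 CPM, with 6 of 7 lower. Of the other marker lists, 2 of 5 endothelial, 1 of 5 macrophage, 1 of 4 adipocyte and 2 of 5 Schwann cell markers were lower and 1 macrophage marker was higher, while no erythroid or satellite cell marker was called. At 3 months no marker of any list was called between genotypes. Their part in the differences between ligases was not tested.

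**Figure D3:**
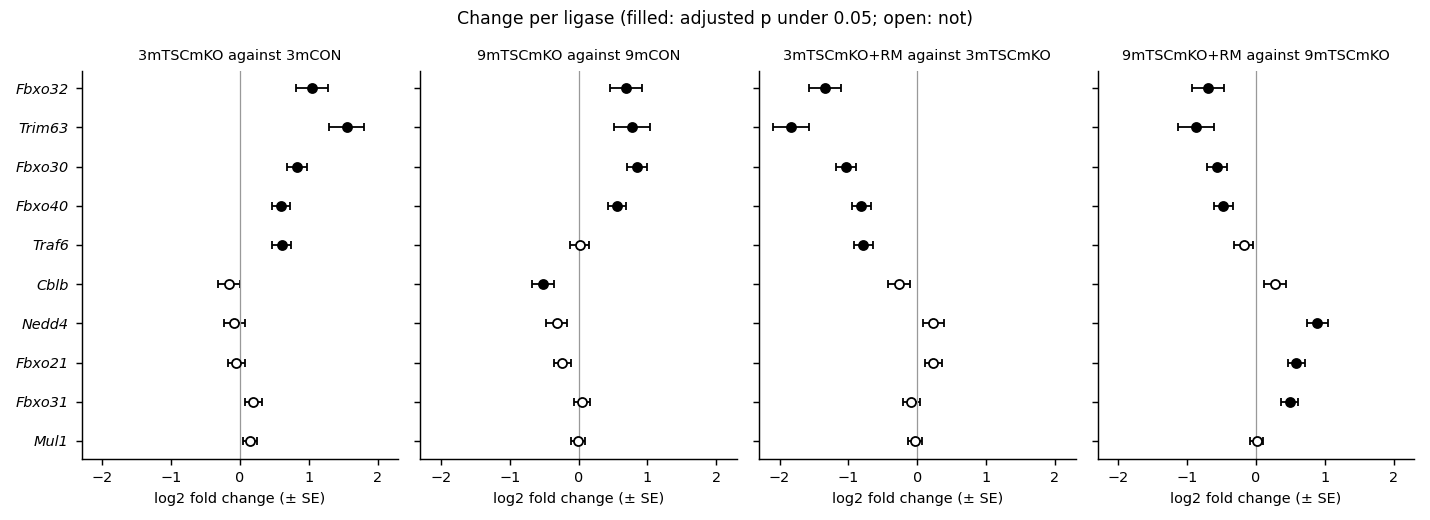
Log2 fold change with SE of each ligase in 4 comparisons, genotype at 3 and 9 months and rapamycin against vehicle in TSCmKO at both ages; filled points have an adjusted p under 0.05. Fbxo32, Trim63, Fbxo30 and Fbxo40 lie to the right of 0 in both genotype comparisons and to the left in both rapamycin comparisons, and Nedd4, Fbxo21 and Fbxo31 lie to the right under rapamycin at 9 months.

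Rapamycin was compared with vehicle in the knockout. It was given to the whole animal, so mTORC1 in fibers and in other cells cannot be told apart. In 3mTSCmKO+RM against 3mTSCmKO, 5 of 10 members fell and 0 rose, against 13% of all tested genes lower and 10.6% higher. The 5 were Trim63, Fbxo32, Fbxo30, Fbxo40 and Traf6, the members that were higher in 3mTSCmKO; both comparisons share the 3mTSCmKO libraries, so the overlap is no independent result. Trim63 fell to 30.4, 30.0, 34.2, 28.8 and 19.7 CPM, 3.57-fold below vehicle (log2 -1.84, SE 0.26, adjusted p = 1.51e-06). Fbxo32 fell to 534, 430.4, 614, 242 and 409 CPM, 2.54-fold below vehicle (log2 -1.35, SE 0.23, adjusted p = 3.27e-05). In both genes the treated and vehicle knockout libraries did not overlap. Of all genes called in this comparison 44.9% were higher, and 55.7% with upper-quartile scaling, under which the 5 members stayed lower.

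Fbxo30 fell 2.06-fold to 22.8 ± 3.81 CPM (log2 -1.04, SE 0.14, adjusted p = 7.61e-07). Fbxo40 fell 1.76-fold to 385 ± 25.1 CPM (log2 -0.81, SE 0.14, adjusted p = 1.96e-05), and Traf6 1.72-fold to 27.6 ± 2.51 CPM (log2 -0.79, SE 0.14, adjusted p = 4.07e-05). Groups did not overlap in any of these 3 genes. Without overlap, 11.6% of all tested genes were lower and 9.53% higher. Cblb (log2 -0.26), Nedd4 (0.23), Fbxo21 (0.23), Fbxo31 (-0.09) and Mul1 (-0.04) were not called, although the Cblb groups, 18.1 to 25.0 and 25.2 to 30.2 CPM, did not overlap (adjusted p = 0.235, and 0.0498 with only the groups compared). Summed fiber markers were 136173 to 164147 CPM in 3mTSCmKO+RM and 91778 to 154252 CPM in 3mTSCmKO, with 3 of 8 higher and 1 lower. Of the other marker lists, 2 of 5 macrophage and 1 of 7 tendon and fibroblast markers were higher. Their part was not tested.

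At 9 months, rapamycin moved 7 of 10 members in TSCmKO, 4 lower and 3 higher, against 16.8% of all tested genes lower and 15.8% higher. Those lower were Trim63, with 28.2, 27.7, 32.4, 25.2 and 26.2 CPM, all under the lowest vehicle library (1.83-fold, log2 -0.87, SE 0.26, adjusted p = 0.00882), and Fbxo32, with 531, 638, 627, 695 and 487 CPM, which overlaps vehicle replicate 3 (1.62-fold, log2 -0.70, SE 0.23, adjusted p = 0.0179). Fbxo30 was 1.48-fold lower at 28.9 ± 6.59 CPM (adjusted p = 0.00243) and Fbxo40 1.39-fold lower at 450.2 ± 68.5 CPM (adjusted p = 0.00650), both with overlapping groups. The Fbxo40 call was lost with only the groups compared (adjusted p = 0.0695) and with limma on log2(TPM + 1) or log2(TPM + 0.1) (0.140 each).

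The 3 members that rose were Nedd4, Fbxo21 and Fbxo31, none of which was called between genotypes under vehicle with all libraries. Nedd4 measured 689, 1071, 1167, 979 and 824 CPM in 9mTSCmKO+RM against 384, 676, 387, 537 and 566 CPM in 9mTSCmKO. The lowest treated library lay above the highest vehicle library, and the rise was 1.86-fold (log2 0.89, SE 0.16, adjusted p = 2.70e-05). Fbxo21, a FoxO-dependent F-box ligase needed for denervation atrophy, measured 18.1, 21.3, 20.9, 18.8 and 16.1 CPM against 11.2, 14.0, 10.7, 12.5 and 15.1 CPM, a 1.499-fold rise without overlap (log2 0.58, SE 0.12, adjusted p = 0.000313). Fbxo31 measured 177, 195, 202, 188 and 155 CPM against 98.7, 148, 103, 152 and 153 CPM, a 1.40-fold rise without overlap (log2 0.49, SE 0.12, adjusted p = 0.00176). Of all tested genes 8% were higher and 7.15% lower without overlap.

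Cblb (log2 0.27, adjusted p = 0.188) and Mul1 (0.01) were not called. Cblb was called higher without 9mTSCmKO replicate 2 (0.40, adjusted p = 0.0449) or 9mTSCmKO+RM replicate 1 (0.39, adjusted p = 0.0424). It was at 0.05 without the 4 libraries named above. Vehicle replicates 1 and 3 are the lowest for Nedd4, Fbxo21 and Fbxo31 in 9mTSCmKO. Without the 4 libraries named above, Nedd4 rose by 0.67, Fbxo21 by 0.45 and Fbxo31 by 0.27 on the log2 scale, all still called, and Traf6 was then also lower under rapamycin (log2 -0.46, adjusted p = 0.00126), as it was not with all libraries (log2 -0.18, adjusted p = 0.334). Summed fiber markers were 125044 to 160897 CPM in 9mTSCmKO+RM, above the 9mTSCmKO range, with 3 of 8 higher and 1 lower. Of 5 endothelial markers 1 was higher and 1 lower, 1 of 5 Schwann cell markers was lower and 1 of 3 satellite cell markers was higher. Their part was not tested.

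**Figure D4:**
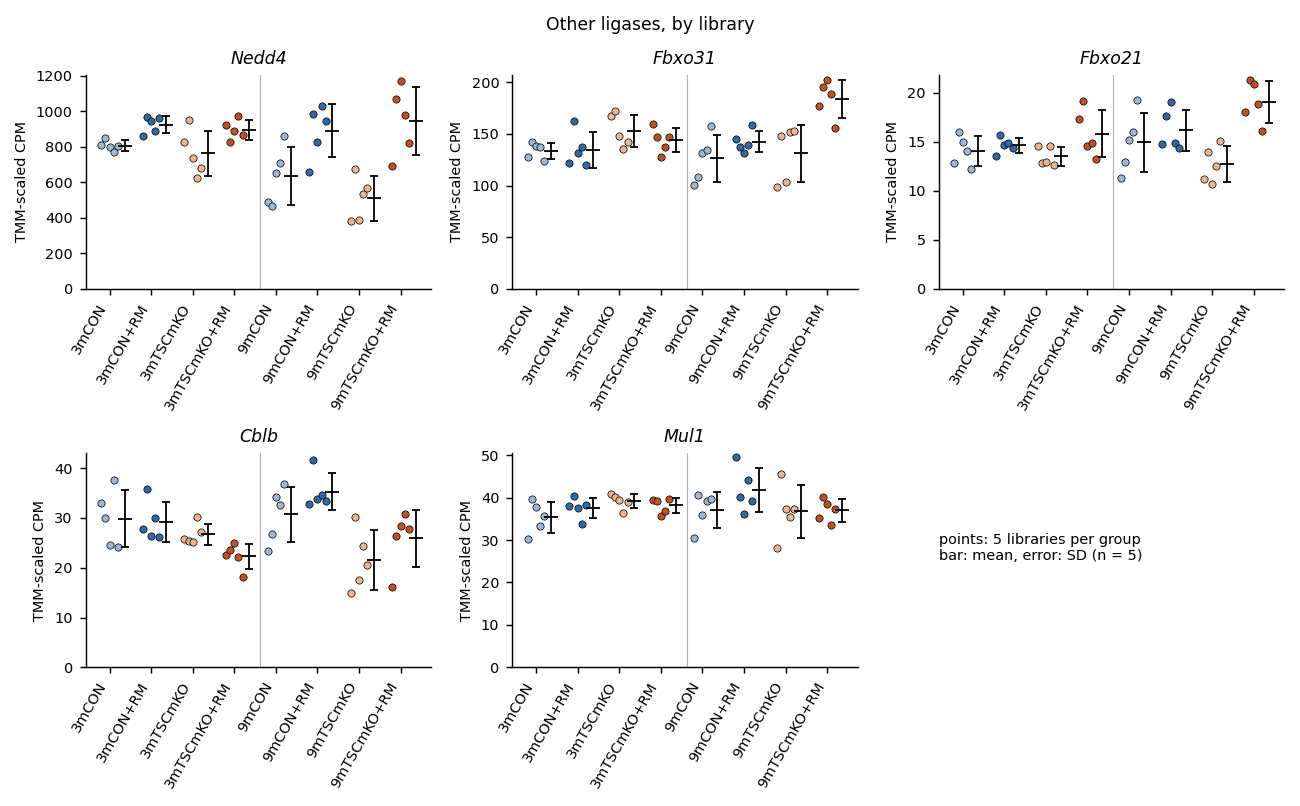
TMM-scaled CPM of Nedd4, Fbxo31, Fbxo21, Cblb and Mul1 by library, with mean and SD of 5 libraries. In 9mTSCmKO+RM the Nedd4 libraries (689 to 1167 CPM) lie above all 9mTSCmKO libraries (384 to 676 CPM), and Mul1 stays between 28.1 and 49.5 CPM throughout.

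In CON muscle rapamycin moved few members. At 3 months 0 of 10 were called by edgeR and 0 had an unadjusted p under 0.05, against 0.362% of all tested genes higher and 0.318% lower; DESeq2 also called 0. The largest fall there was that of Fbxo30 (log2 -0.29, SE 0.15, adjusted p = 0.565), whose groups, 18.2 to 25.7 and 26.2 to 26.7 CPM, did not overlap. Nor did those of Nedd4, at 860.3 to 968 CPM under rapamycin and 769 to 850.4 CPM under vehicle (log2 0.20, SE 0.15, adjusted p = 0.829). Of all tested genes 2.69% were higher and 2.72% lower without overlap. At 9 months 1 member was called, Nedd4, which was higher in 9mCON+RM at 660.3, 984, 828, 1031 and 945 CPM than in 9mCON at 489, 466, 653, 706 and 862 CPM (log2 0.49, SE 0.15, adjusted p = 0.0335), against 5.03% of all tested genes higher and 6.82% lower. The groups overlapped. Tendon and fibroblast markers summed to 128 to 586 CPM in 9mCON+RM, under the 9mCON range given above, with 7 of 7 lower. Macrophage markers summed to 7.36 to 22.6 CPM against 27.3 to 94.9 CPM in 9mCON, with 4 of 5 lower, and 1 of 5 Schwann cell markers was lower. Fiber markers summed to 158258 to 174024 CPM, above the 9mCON range, with 1 of 8 higher. Their part was not tested. This call was lost when any of 6 libraries was left out, 9mCON replicates 1, 2 and 3 and 9mCON+RM replicates 2, 4 and 5 (log2 0.39 to 0.49, adjusted p = 0.0517 to 0.120), and without the 4 libraries named above (log2 0.28, adjusted p = 0.217). It was also lost with only the groups compared (adjusted p = 0.174) and with limma on both TPM scales (0.164 and 0.161).

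The difference between the rapamycin responses of both genotypes was tested as an interaction, the log2 change in TSCmKO minus that in CON. At 3 months 5 of 10 members were called, against 3.45% of all tested genes in either direction. The interaction was -1.63 for Trim63 (SE 0.36, adjusted p = 0.00655), -1.36 for Fbxo32 (SE 0.33, adjusted p = 0.0121), -0.75 for Fbxo30 (SE 0.20, adjusted p = 0.0283), -0.72 for Fbxo40 (SE 0.19, adjusted p = 0.0253) and -0.71 for Traf6 (SE 0.20, adjusted p = 0.0314). Those of Fbxo30, Fbxo40 and Traf6 sat near the threshold: leaving out single libraries removed the call in 6, 4 and 8 of 20 fits, with highest adjusted p-values of 0.0727, 0.0646 and 0.0703. Those libraries were 3mCON+RM replicates 1 and 5, 3mTSCmKO replicate 1 and 3mTSCmKO+RM replicates 2, 4 and 5 for Fbxo30, 3mCON replicate 1 and replicate 2 of each other group for Fbxo40, and replicates 1 and 5 of 3mCON, 1 and 3 of 3mCON+RM, 1 and 3 of 3mTSCmKO and 2 and 3 of 3mTSCmKO+RM for Traf6. Trim63 and Fbxo32 stayed called in each of these fits. With limma on log2(TPM + 1) the calls of Fbxo30, Fbxo40 and Traf6 were lost (adjusted p = 0.154, 0.230 and 0.226), and that of Traf6 also with no filter on low counts (0.0553).

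At 9 months 0 of 10 interactions were called by edgeR, 4 had an unadjusted p under 0.05 and DESeq2 called 1, against 4.87% of all tested genes called in either direction. The values with the smallest adjusted p were those of Fbxo40 (-0.57, SE 0.19, adjusted p = 0.0738), Fbxo32 (-0.90, SE 0.32, adjusted p = 0.0989) and Fbxo21 (0.47, SE 0.17, adjusted p = 0.103). Fbxo40 passed without 9mCON replicate 5 (-0.69, adjusted p = 0.0319) or 9mTSCmKO replicate 1 (-0.69, adjusted p = 0.0203), without the 4 libraries named above (-0.61, adjusted p = 0.0343) and with DESeq2 (-0.58, adjusted p = 0.0436), and Fbxo21 without 9mCON replicate 1 (0.54, adjusted p = 0.0482). In 9mCON+RM the Fbxo32 libraries measured 456, 599, 639, 541 and 1207 CPM, so that replicate 5 alone raised the group mean to 688 ± 298 CPM.

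**Figure D5:**
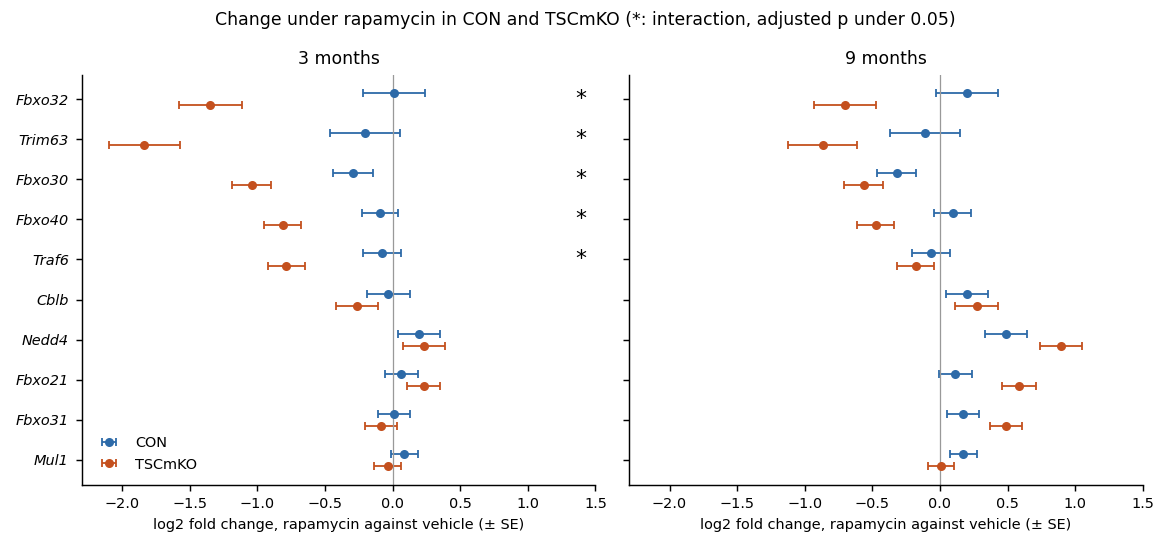
Log2 fold change with SE under rapamycin in CON (blue) and TSCmKO (orange) at 3 and 9 months; an asterisk marks an interaction with an adjusted p under 0.05. At 3 months the TSCmKO points of Trim63, Fbxo32, Fbxo30, Fbxo40 and Traf6 lie between -1.84 and -0.79 and the CON points between -0.29 and 0.01, and no asterisk appears at 9 months.

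Genotypes were also compared under rapamycin. At 3 months 0 of 10 members differed between 3mTSCmKO+RM and 3mCON+RM by edgeR, 1 with an unadjusted p under 0.05 and 0 by DESeq2, against 5.67% of all tested genes higher and 4.36% lower. This was Cblb (log2 -0.39, SE 0.16, adjusted p = 0.113), at 18.1 to 25.0 CPM against 26.2 to 35.9 CPM without overlap, as in 7.15% of all tested genes (7.12% were higher without overlap), and it was called with only the groups compared (adjusted p = 0.0194). For Trim63 the difference was -0.08 (SE 0.26) and for Fbxo32 -0.31 (SE 0.23). At 9 months 3 members were called, 2 higher and 1 lower in 9mTSCmKO+RM, against 11.3% of all tested genes higher and 9.33% lower. Fbxo30 remained higher at 18.7, 30.3, 27.4, 36.6 and 31.3 CPM against 16.3, 19.0, 15.1, 19.9 and 25.1 CPM in 9mCON+RM (1.51-fold, log2 0.60, SE 0.15, adjusted p = 0.00239). Fbxo31 was 1.29-fold higher (log2 0.37, SE 0.12, adjusted p = 0.0246) and Cblb 1.36-fold lower without overlap, at 16.0 to 30.8 CPM against 32.8 to 41.8 CPM (log2 -0.44, SE 0.16, adjusted p = 0.0382). Without overlap, 5.92% of all tested genes were lower and 7.7% higher there. The calls of both Fbxo31 and Cblb were lost without 9mCON+RM replicate 2 (adjusted p = 0.0504 and 0.112) or 9mTSCmKO+RM replicate 2 (0.0556 and 0.0580). That of Fbxo31 was also lost without 9mTSCmKO+RM replicate 3 (0.0636), and that of Cblb without 9mCON+RM replicates 3, 4 or 5 (0.0549 to 0.0561) or 9mTSCmKO+RM replicate 1 (log2 -0.30, adjusted p = 0.158). The Cblb call was also lost with only the groups compared (adjusted p = 0.0730) and with limma on log2(TPM + 1) or log2(TPM + 0.1) (0.231 and 0.227), and that of Fbxo31 with no filter on low counts (0.0797). Markers called in this comparison were 1 of 8 fiber and 1 of 5 macrophage markers, higher in 9mTSCmKO+RM, and 2 fiber markers and 1 of 5 endothelial markers, lower, and their part was not tested.

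Between 3 and 9 months, 0 of 10 members differed in CON muscle by edgeR, 1 with an unadjusted p under 0.05 and 0 by DESeq2, against 0.679% of all tested genes higher and 0.34% lower at 9 months. Higher genes made up 66.7% of these calls, but 28.4% with limma on log2(TPM + 1) and 31.2% on log2(TPM + 0.1). In TSCmKO, 3 were lower at 9 months and 0 were higher, against 18.3% of all tested genes lower and 19.1% higher. Trim63 fell 2.003-fold from 102 ± 46.7 to 51.1 ± 18.4 CPM (log2 -1.002, SE 0.25, adjusted p = 0.00232) and Traf6 1.61-fold from 47.6 ± 3.05 to 29.5 ± 8.69 CPM (log2 -0.69, SE 0.14, adjusted p = 0.000199). Nedd4 fell 1.496-fold from 763 ± 128 to 510 ± 125 CPM (log2 -0.58, SE 0.16, adjusted p = 0.00342). With insert size as a term, which moves with age, none of the 3 passed, although the log2 fold changes were -0.80 for Trim63 (adjusted p = 0.138), -0.51 for Traf6 (0.0640) and -0.54 for Nedd4 (0.0847). Without the 4 libraries named above, Trim63 and Traf6 stayed called and Nedd4 did not (log2 -0.34, adjusted p = 0.0778). Mul1 was called lower with limma on log2(TPM + 1) (log2 -0.40, adjusted p = 0.0173), and Cblb without 9mTSCmKO replicate 2 (log2 -0.47, adjusted p = 0.0164). Markers of other cells moved with age in TSCmKO too: 6 of 7 tendon and fibroblast, 3 of 5 endothelial, 3 of 4 adipocyte, 3 of 4 erythroid, 3 of 8 fiber, 1 of 5 macrophage and 1 of 3 satellite cell markers were lower, and 1 fiber, 1 macrophage and 1 Schwann cell marker were higher. Summed tendon and fibroblast markers ran from 282 to 880.2 CPM in 9mTSCmKO and from 891 to 1626 CPM in 3mTSCmKO. Their part was not tested. The interaction of genotype with age called 0 members by edgeR, 2 with an unadjusted p under 0.05 and 0 by DESeq2, against 4.94% of all tested genes called in either direction. It was -0.59 for Traf6 (SE 0.20, adjusted p = 0.0724) and -0.77 for Trim63 (SE 0.36, adjusted p = 0.225). Traf6 passed when 9mCON replicate 1 or 2 or 9mTSCmKO replicate 2 or 5 was left out (adjusted p = 0.0205 to 0.0455).

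Some members varied together between libraries of a group. Deviations from the group means of log2(CPM + 1) over the 40 libraries, which share preparation and scaling, had the highest Pearson correlation for Traf6 and Nedd4 (0.84, Spearman 0.79), followed by Fbxo40 and Nedd4 (0.82, Spearman 0.75). The lowest was that of Fbxo32 and Mul1 (-0.12, Spearman -0.08). On log2(TPM + 1), 15 of the 45 pairs moved by 0.2 or more, and Fbxo40 and Nedd4 were highest (0.92). The libraries that least resembled their groups are included. Among them, 9mTSCmKO replicates 1 and 3 were lowest of their group for both Traf6 (20.8 and 19.7 CPM) and Nedd4 (384 and 387 CPM). No such correlation was computed without these libraries or for other gene pairs. Across all 40 libraries and groups, the genes whose log2(CPM + 1) most resembled each member, among 9638 candidates, were Asb15 (Pearson 0.90) and Tle4 (0.84) for Trim63, Mib1 (0.81) and Ranbp10 (0.81) for Fbxo32, and Acbd5 (0.89) and Mib1 (0.88) for Fbxo30. They were Tor1aip2 (0.86) and Cdc27 (0.86) for Fbxo40, Pcyt1a (0.93) and Efcab14 (0.92) for Traf6, Sptb (0.93) and Tnks (0.93) for Nedd4, and Mef2a (0.78) and Hook1 (0.76) for Cblb. For Fbxo31 they were Ubqln4 (0.83) and Klc2 (0.82), for Fbxo21 Zfp930 (0.74) and Dctn1 (0.73), and for Mul1 Gps1 (0.78) and Ubac2 (0.69). Likeness was lowest for Fbxo21, Cblb and Mul1.

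Of 15 other FoxO targets measured, 8 were higher and 0 lower in 3mTSCmKO, and 9 were higher and 2 lower in 9mTSCmKO, where all tested genes gave 11.4% and 8.32% at 3 months and 19.1% and 18.9% at 9 months, with median log2 fold changes of 0.60 and 0.90 against -0.02 over all genes at both ages. Sesn3, a stress-induced brake on mTORC1, was higher in both (log2 1.81 at 3 and 1.82 at 9 months, adjusted p = 1.04e-08 and 3.74e-09). 8430408G22Rik rose by 2.83 and 1.63 (adjusted p = 1.27e-05 and 0.00316). Ctsl, Gabarapl1, Eif4ebp1, Sesn1, Cited2 and Bnip3 were called higher at both ages, Klf9 and Irs2 lower at 9 months. Under rapamycin 9 of the 15 fell and 0 rose in 3mTSCmKO (median -0.51), and 5 fell and 2 rose in 9mTSCmKO (median -0.24, Insr and Irs2 higher), where all tested genes gave 13% lower and 10.6% higher at 3 months and 16.8% and 15.8% at 9 months.

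Of 23 regulators of the ligases, 4 were higher and 4 lower in 3mTSCmKO, and 3 were higher and 7 lower in 9mTSCmKO. Over all tested genes the shares were 11.4% higher and 8.32% lower at 3 months and 19.1% and 18.9% at 9 months, so the 3 higher regulators at 9 months are fewer than that share gives. Smad3, a mediator of myostatin signalling, fell at both ages (log2 -1.34 and -2.10, adjusted p = 1.13e-06 and 4.81e-11), and so did Foxo6, a FoxO factor (-1.15 and -1.65, adjusted p = 9.95e-05 and 1.22e-07). Klf15 and Akt1 were among those higher at 3 months, and Myog, Mef2c and Smad2 those higher at 9 months. Rapamycin raised 8 and lowered 2 (Akt1 and Klf15) in 9mTSCmKO, and raised 5 and lowered 4 in 3mTSCmKO, with Smad3 higher in both (1.33 and 1.59, adjusted p = 1.51e-06 and 5.53e-08). All tested genes gave 15.8% higher and 16.8% lower under rapamycin in 9mTSCmKO and 10.6% and 13% in 3mTSCmKO, and the 4 lower regulators at 3 months are near that share.

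Of 21 ubiquitin cascade partners, which supply the ligases, 1 was higher and 1 lower in 3mTSCmKO, and 5 were higher and 2 lower in 9mTSCmKO. The counts at 3 months and the 2 lower at 9 months are under the shares of all tested genes (11.4% higher and 8.32% lower at 3 months, 18.9% lower at 9 months), and the 5 higher are near theirs (19.1%). Skp1a, the SCF adaptor that F-box proteins bind, was higher at both ages (log2 0.46 and 0.61, adjusted p = 0.0180 and 0.000778) and fell under rapamycin at both (-0.69 and -0.79, adjusted p = 0.000385 and 5.00e-05). Ube2d1, an E2 enzyme, was lower at 9 months (-0.70, adjusted p = 0.000257). Rbx1, Skp1a, Ube2n and Ube2d2a were the 4 partners lower under rapamycin in TSCmKO at each age, a count near the shares of all tested genes lower there (13% at 3 and 16.8% at 9 months), and 0 partners rose at 3 months and 1 at 9 months, under the 10.6% and 15.8% of all tested genes higher there.

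Of 16 known substrates, 4 of which are also fiber markers (Acta1, Des, Myh4 and Mylpf), 1 was higher and 1 lower in 3mTSCmKO, and 2 were higher and 5 lower in 9mTSCmKO (Myod1, Acta1, Mybpc2, Myh4 and Myl1 lower), beside the same shares of all tested genes, 11.4% and 8.32% at 3 months and 19.1% and 18.9% at 9 months. Mybpc2, the fast form of myosin binding protein C, fell by 0.62 and 1.31 on the log2 scale (adjusted p = 0.00653 and 9.14e-08) and rose under rapamycin by 0.998 and 1.60 (adjusted p = 2.58e-05 and 5.15e-09). Kif11, a mitotic kinesin, rose by 0.93 and 2.004 (adjusted p = 0.0223 and 2.58e-06). Under rapamycin 7 substrates rose and 1 fell in 3mTSCmKO, and 8 rose and 2 fell in 9mTSCmKO, beside 10.6% of all tested genes higher and 13% lower at 3 months and 15.8% and 16.8% at 9 months. Ligase activity acts on protein, which was not analysed here. Of 23 other muscle ligases and deubiquitinases, 5 were higher and 3 lower in 3mTSCmKO and 5 were higher and 2 lower in 9mTSCmKO. Between genotypes all tested genes gave 11.4% higher and 8.32% lower at 3 months and 19.1% and 18.9% at 9 months. The 5 higher at 9 months are near that share, and the 2 lower are under theirs. Klhl40, a thin filament stabiliser, was higher at both ages (0.45 and 0.62, adjusted p = 0.0150 and 0.000370), and Usp14, a deubiquitinase of the proteasome, at 9 months (0.52, adjusted p = 0.000827). Under rapamycin, 3 rose and 5 fell in 3mTSCmKO, and 7 rose and 3 fell in 9mTSCmKO. Klhl40 and Usp14 were among those that rose at both ages. The 3 that rose at 3 months and the 3 that fell at 9 months are near the shares of all tested genes (10.6% and 16.8%).

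Between the genotypes under rapamycin at 9 months, 6 FoxO targets were higher and 2 lower, and 2 regulators were higher and 6 lower, beside 11.3% of all tested genes higher and 9.33% lower. There 0 partners were higher and 3 lower, 3 substrates were higher and 1 lower, and 2 other ligases were higher and 4 lower. In 9mTSCmKO against 3mTSCmKO, 7 of the 21 ubiquitin cascade partners were higher and 0 lower, and 2 regulators were higher and 8 lower. Of FoxO targets 3 were higher and 3 lower, and of substrates 1 was higher and 5 lower. Other ligases and deubiquitinases were then higher in 5 cases and lower in 10. All tested genes gave 19.1% higher and 18.3% lower in that comparison. With insert size as a term, 1702 instead of 5064 genes were called there. In 9mCON+RM against 9mCON, 3 substrates were higher and 2 lower, 3 regulators and 1 partner were higher, and 2 FoxO targets were lower. Of other ligases and deubiquitinases, 3 were higher and 1 lower. All tested genes gave 5.03% higher and 6.82% lower. In 3mCON+RM against 3mCON, 0 genes of any list were called. The interaction with rapamycin at 9 months called 0 regulators, 0 other ligases, 1 substrate, 1 partner and 2 FoxO targets. Of all tested genes it called 4.87%. These gene lists were chosen with results of these data known, so their counts are a description.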

How the data were processed

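The authors isolated poly(A) RNA from whole EDL lysates and sequenced directional single-end libraries. Per the labels' processing notes they used cutadapt 1.9.1 and kallisto 0.43.1 with build GRCm38. The study's methods name Ensembl protein-coding transcripts, strand-specific assignment and equal sharing of reads that hit several transcripts, summed per gene. The table also lists genes that GENCODE M21 does not annotate as protein-coding, so the transcript set, on which TPM depends, is uncertain. The deposited estimated counts are whole numbers per gene, and the authors computed the deposited TPM per transcript from its reads and length and summed it per gene. Groups and replicates came from the labels, and 0 value columns lacked a sample. Nothing states that mice came from separate litters, so p-values measure only the spread between these libraries.

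Genes with at least 1 CPM in 5 libraries were kept (13543 of 22844). TMM scaling and edgeR 4.0.16 (R 4.3.3) robust quasi-likelihood F-tests were fitted to 8 groups and 40 libraries, with two-sided p-values adjusted by Benjamini-Hochberg over all tested genes (threshold 0.05), for 10 pairwise and 3 interaction contrasts. The members, the gene lists and the marker lists were chosen with earlier results of these data known. From each list the 2 called genes with the largest change in 9mTSCmKO against 9mCON are named with values, and other genes were named after their values were seen. The procedure was tested on simulated counts in which few genes changed, in a single group. That setting was unlike these data, so the check does not bear on calls near the threshold. Alternatives were upper-quartile and RLE scaling, DESeq2 1.42.0, no low-count filter, only the groups compared, insert size as a term, a replicate block, limma 3.58.1 on log2(TPM + 1) and log2(TPM + 0.1), and leaving out single libraries.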

Additional observations from a re-analysis of the deposited data

Results flagged for a closer look

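In 80 groups of 5 libraries (10 ligases in 8 groups), 8 libraries lay far from the other 4 of their group, with a gap of more than 0.71 of the range. Chance gives about 1 in 20. Fbxo32 was far above its group in 9mCON+RM replicate 5 (1207 CPM, the next at 639 CPM) and far below it in 9mTSCmKO replicate 3 (655 CPM, the next at 974 CPM). Trim63 was high in 3mCON replicate 3 (41.2 CPM), 3mCON+RM replicate 2 (48.01 CPM) and 9mCON+RM replicate 5 (36.1 CPM), the library that was also high for Fbxo32. Fbxo30 was low in 9mCON replicate 1 (16.5 CPM), Fbxo40 high in 3mTSCmKO replicate 2 (829 CPM) and Cblb high in 9mCON+RM replicate 2 (41.8 CPM).

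Responses to rapamycin differed between genotypes at 3 months in the interaction test for Trim63 (-1.63), Fbxo32 (-1.36), Fbxo30 (-0.75), Fbxo40 (-0.72) and Traf6 (-0.71) on the log2 scale.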

How the results depend on the processing

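Of 2900 comparisons of a member's fold change with its value under another setting, 2816 kept direction and side of the threshold, or had no call in either, 65 lost a call, 19 gained one and 0 reversed a called direction. Fitting only the groups compared gave 2 called members instead of 5 for genotype at 9 months (Trim63, Fbxo40 and Cblb lost), 1 instead of 0 for genotype under rapamycin at 3 months, and 0 instead of 1 for rapamycin in 9mCON. Without 9mCON replicates 1 and 2 and 9mTSCmKO replicates 1 and 3, chosen after the data were seen, the counts were 3 for genotype at 9 months, 0 for rapamycin in 9mCON and 1 instead of 0 for the interaction at 9 months (Fbxo40), where DESeq2 also gave 1 (Fbxo40). With limma on either TPM scale, 2 of the 5 interactions at 3 months remained (Trim63 and Fbxo32), and 0 members were called for rapamycin in 9mCON. Insert size as a term left 0 of 3 for age in TSCmKO, with log2 fold changes of -0.80 for Trim63, -0.51 for Traf6 and -0.54 for Nedd4, against -1.002, -0.69 and -0.58. The cause of these changes was not tested.

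Leaving out each library in turn gave 4 to 5 called members for genotype at 9 months, 5 to 5 at 3 months, 1 to 3 and 0 to 0 for genotype under rapamycin at 9 and 3 months, 7 to 8 and 5 to 5 for rapamycin in TSCmKO, 0 to 1 and 0 to 0 for rapamycin in CON, 0 to 0 for age in CON and 3 to 4 in TSCmKO. For the interactions it gave 0 to 1 with age, 0 to 1 for rapamycin at 9 months and 2 to 5 at 3 months.

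Same-numbered libraries deviated with correlations of -0.46 to 0.56, in no comparison over 0.1 for every pair. This cannot show whether same-numbered mice were littermates or were processed together, so a pairing is unknown. With the replicate block, 5 members were called for genotype at both ages, and 5082 instead of 5133 genes in all at 9 months. Counts over all genes moved over 1.5 times with only the groups compared in 10 of 13 comparisons (2647 instead of 5133 for genotype at 9 months), and with insert size for age (1702 instead of 5064 in TSCmKO, 25 instead of 138 in CON). Without the 4 libraries they moved for rapamycin in 3mCON (219 instead of 92), age in CON (38) and TSCmKO (3333), and the interaction at 3 months (837 instead of 467). DESeq2 gave 181 for rapamycin in 3mCON and 375 for age in CON, and no filter 38 and 83, and 435 instead of 660 for the interaction at 9 months. On log2(TPM + 1) age in CON gave 215. On log2(TPM + 0.1) the share of calls that were higher was 60.7% instead of 50.3% for genotype at 9 months, 77.2% instead of 54.8% under rapamycin at 9 months and 55.0% instead of 44.9% for rapamycin in 3mTSCmKO. The same scale gave 66.8% instead of 56.5% for genotype under rapamycin at 3 months, 28.6% instead of 42.5% for rapamycin in 9mCON, 31.2% instead of 66.7% for age in CON, 84.9% instead of 60.8% for the interaction with age and 53.2% instead of 39.4% for that with rapamycin at 3 months, and the median over all genes moved to 0.12 for genotype under rapamycin at 9 months and -0.13 for age in CON.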
